A study of Ovis aries with 2 samples.

Results

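The genes described here are the HNRNP and SRSF splicing factors of sheep blood mononuclear cells. They were taken by name: every gene whose symbol begins with HNRNP or SRSF, HNRNPLL included, which gave 31 of the 26814 gene names in the files, 20 of them HNRNP and 11 SRSF. No measured value entered that choice. All 31 were counted in both libraries, and all 31 had at least 100 unique molecular identifiers (UMIs, one per captured RNA molecule) over the 2 libraries together.

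Heterogeneous nuclear ribonucleoproteins (hnRNPs) coat newly made RNA and often keep the splicing machinery away from exons, while SR proteins, named for their arginine- and serine-rich tails, bind enhancers inside exons and recruit that machinery. Their balance decides which exons many transcripts keep. In lymphocytes the textbook case is CD45, the phosphatase encoded by PTPRC, whose variable exons are skipped when T cells are activated, and HNRNPLL is the factor best known, from human and mouse work, for enforcing that skipping. Several of these genes also control their own RNA level through exons that lead to decay.

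The study compared 2 groups with 1 droplet library each. The A.G.-ES library came from sheep with this material embedded on both sides at ST36, an acupuncture point; by the series title it is a suture that elutes the plant saponins astragaloside IV (from Astragalus) and glycyrrhizic acid (from liquorice), and the animals were weaned lambs. The untreated library is from sheep given no treatment. In both groups the blood cells were used fresh, and the labels give neither the number of animals behind a library nor their age or breed, the time between embedding and bleeding, or a group with a drug-free suture. After filtering, 8737 A.G.-ES cells with 39275689 UMIs (median 4100 per cell) and 7565 untreated cells with 50543124 UMIs (median 5130) remained. Among all barcodes before filtering, 61 sequences occurred in both libraries.

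With 1 library per group no test between the treatments was possible, and no difference between them has a replicate check. Levels are given as CPM, UMIs per 1000000 UMIs of the cells summed, and each fold as A.G.-ES over untreated. All intervals are 95% intervals, exact Poisson for levels, exact conditional binomial for ratios and exact binomial for shares, and cover counting error alone. A gene was called higher or lower at 1.5-fold or more, which is 0.58 on the log2 scale, if it had at least 100 UMIs over both libraries in the cells summed. The kit reads the 3′ end of a transcript, so UMIs should depend little on transcript length. Levels of different genes are set side by side on that ground, though capture may differ between genes. Whether reads within introns were counted is not given in the sources used here.

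Cells were gated into 6 classes by marker genes. The B class (gated on a marker list that includes MS4A1, CD79B, PAX5, BANK1, CD22 and EBF1) held 1935 A.G.-ES and 3533 untreated cells, or 22.1% and 46.7% of the kept cells. The CD4 T class held 1369 A.G.-ES and 359 untreated cells (15.7% and 4.75%), the CD8B T class 690 and 231 (7.90% and 3.05%), and T cells with SOX13 or RHEX, called SOX13/RHEX T here, 880 and 1917 (10.1% and 25.3%). The NK class held 55 A.G.-ES and 32 untreated cells and the monocyte class 267 and 169. The B gate carried 4.01 A.G.-ES and 6.94 untreated UMIs of MS4A1 per cell, and the monocyte gate 29.4 and 26.7 of VCAN; CD68 was at 0 in the monocyte gate of both libraries and CD14 at 0.19 and 0.20 UMIs per cell. CD79A had 1.12 A.G.-ES and 1.39 untreated UMIs per cell in the SOX13/RHEX T class and was left out of the B gate. The NK gate carried 0.76 A.G.-ES and 0.41 untreated UMIs of the T-cell gene THEMIS per cell, so it may hold T cells.

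Together the 31 genes supplied 0.752% of all UMIs in the A.G.-ES library and 0.813% in the untreated library. The HNRNP genes summed to 5165 CPM in A.G.-ES cells and 5848 CPM in untreated cells, and the SRSF genes to 2356 CPM in A.G.-ES cells and 2281 CPM in untreated cells. HNRNPA2B1, which also reads RNA modifications and sorts RNA into vesicles, was the most abundant, at 724 CPM in A.G.-ES and 816 CPM in untreated cells. SRSF11 followed at 674 CPM in A.G.-ES and 694 CPM in untreated cells, and HNRNPA1, a repressor of exon inclusion and the best studied hnRNP, had 545 CPM in A.G.-ES and 649 CPM in untreated cells. The next 5 by UMIs were SRSF5, HNRNPDL, HNRNPH1, HNRNPD and HNRNPM, all between 337 and 652 CPM in the A.G.-ES library. At the low end stood SRSF12 with 124 A.G.-ES and 133 untreated UMIs in all. HNRNPA1 and several relatives have processed copies in mammalian genomes, and how reads shared between such copies were counted is not given in the sources used here.

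Over all kept cells HNRNPLL and SRSF9 stood apart, and every other gene of the 31 lay within 1.5-fold. The median log2 ratio of the 31 was -0.14, against -0.07 for all 11787 genes past the UMI minimum. HNRNPLL was called higher and SRSF9 lower, 1 gene in each direction, where 15.1% of all genes were called higher and 16.9% lower. SRSF9, an SR protein with a short RS tail, had 36.8 CPM in A.G.-ES cells and 67.7 CPM in untreated cells, 1.84-fold lower. The SRSF9 call was lost when the class mix of the A.G.-ES library was set to that of the untreated library. It was also lost with antibody-secreting cells left out. SRSF7 had 292 CPM in A.G.-ES cells and 210 CPM in untreated cells (log2 0.48), and HNRNPAB had 150 CPM in A.G.-ES cells and 211 CPM in untreated cells (log2 -0.49). HNRNPC, which binds uridine runs and packages introns, had 162 CPM in A.G.-ES cells and 220 CPM in untreated cells (log2 -0.45).

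**Figure D1:**
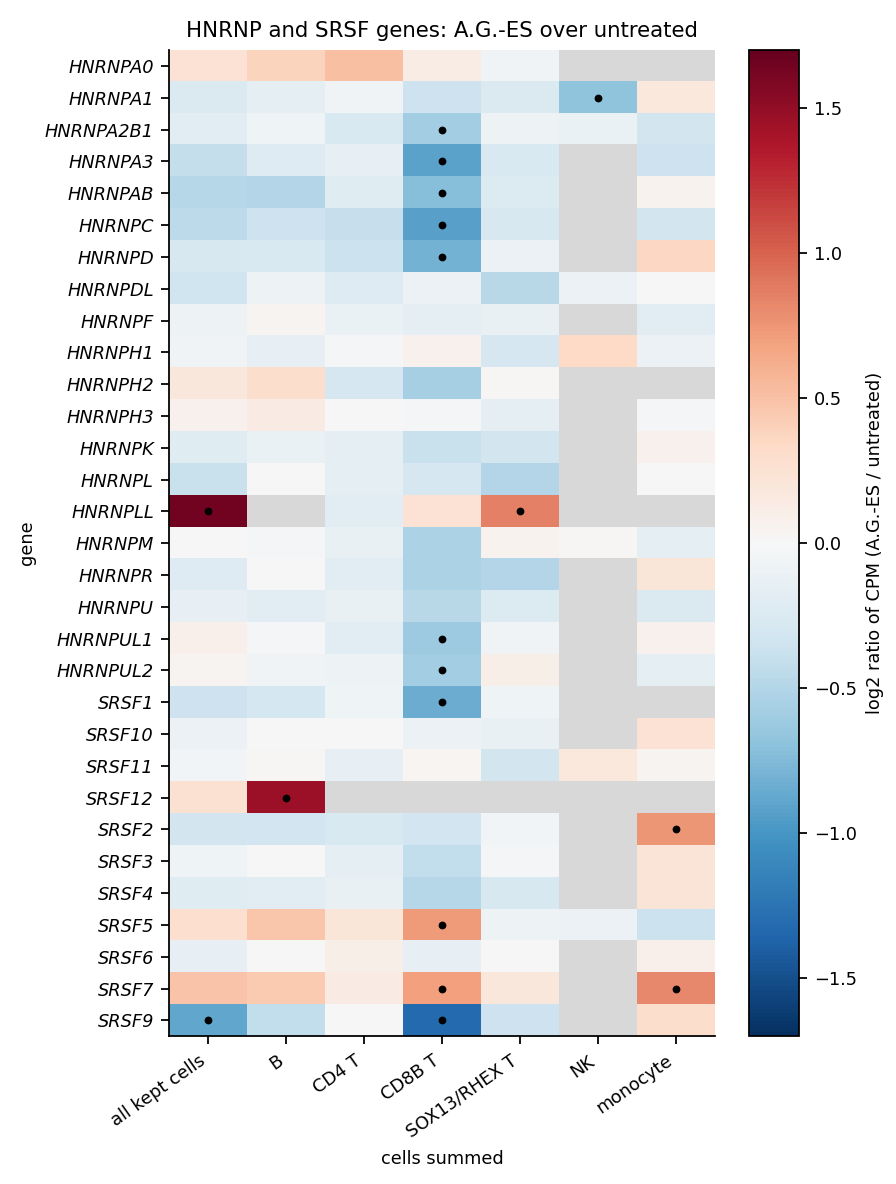
Log2 ratio of CPM, A.G.-ES over untreated (colour), for each of the 31 genes (rows) in all kept cells and in 6 marker-gated classes (columns); dots mark ratios of at least 1.5-fold either way and grey cells are sums with fewer than 100 UMIs over both libraries. The CD8B T column is the bluest, with 9 genes past 1.5-fold lower, and HNRNPLL is the reddest cell in the column of all kept cells.

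HNRNPLL was high in T cells and near 0 in B cells. It had 221 CPM in A.G.-ES and 251 CPM in untreated CD4 T cells. The CD8B T class had 83.8 CPM in A.G.-ES and 70.6 CPM in untreated cells, and the SOX13/RHEX T class 51.2 CPM in A.G.-ES and 28.3 CPM in untreated cells. In the B class it had 2.11 CPM in A.G.-ES cells (23 UMIs) and 0.457 CPM in untreated cells (15 UMIs). For the other genes but SRSF12, the highest of the 6 classes was at most 3.26-fold above the lowest in the A.G.-ES library and 8.43-fold in the untreated library, the second value being SRSF9 over 1 NK UMI. Monocyte-gated cells had 14.3 CPM in A.G.-ES (25 UMIs) and 8.47 CPM in untreated (7 UMIs), and the NK class 68.5 CPM in A.G.-ES (32.8 to 126; 10 UMIs) and 106 CPM in untreated (53.1 to 190; 11 UMIs), intervals that hold the CD8B T level of each library.

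The share of cells with an HNRNPLL UMI was also highest in CD4 T and lowest in B. With every cell thinned to 1500 UMIs, 24.1% of 1353 A.G.-ES CD4 T cells (21.8% to 26.5%) and 26.1% of 357 untreated CD4 T cells (21.6% to 30.9%) had one, against 0.376% of 1861 A.G.-ES B cells and 0.0594% of 3366 untreated B cells. Unthinned, the shares were 48.4% of A.G.-ES and 60.7% of untreated CD4 T cells, and 1.14% of A.G.-ES and 0.396% of untreated B cells, with median depths of 4654 and 5174 UMIs in CD4 T and 5090 and 8727 UMIs in B. Free RNA in droplets can give UMIs at such low shares, and the B values were not read as expression.

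By the class rule, at least 1.5-fold above or below the median of the other 5 classes in both libraries, HNRNPLL was high in CD4 T, high in CD8B T and low in B and in monocytes. It was 4.33-fold above the other classes' median in A.G.-ES and 8.86-fold in untreated CD4 T cells, and also past 1.5-fold against each other class. Among all 11342 genes, 12% were high in the CD4 T class and 5.98% low, 10.8% were high in CD8B T and 6.37% low, and HNRNPLL was the 1 gene of the 31 called in either class. The CD4 T, B and monocyte calls were kept in all 11 alternative settings tried, and the CD8B T call in 10, being lost with doublets kept.

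Between the libraries HNRNPLL had 95.5 CPM in A.G.-ES cells and 30.5 CPM in untreated cells over all kept cells, 3.13-fold higher (2.95 to 3.32). Within CD4 T cells the log2 ratio was -0.18. When the class mix of the A.G.-ES library was set to that of the untreated library, the log2 ratio over all cells was 0.20, against 1.65 as measured. CD4 T cells, the class with the most HNRNPLL per UMI sequenced, were 15.7% of A.G.-ES and 4.75% of untreated cells. Cells outside the 6 classes, 40.5% of A.G.-ES and 17.5% of untreated cells, held 1741 of 3749 HNRNPLL UMIs in A.G.-ES and 645 of 1541 in untreated, and entered the class mix as 1 further group.

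Within classes HNRNPLL was called in 1. SOX13/RHEX T cells had 201 UMIs in A.G.-ES and 227 UMIs in untreated cells, which is 1.81-fold higher (1.49 to 2.20) per UMI sequenced. It was the 1 gene of 30 called higher in that class and no gene was called lower, where 4.47% of all genes were called higher and 13.4% lower. The log2 ratio lay between 0.74 and 1.00 in the alternatives. Its thinned share was 7.55% of A.G.-ES cells (5.89% to 9.51%) and 4.03% of untreated cells (3.18% to 5.01%).

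HNRNPL, the closest relative of HNRNPLL and a general binder of CA repeats, showed another distribution. It was highest in B cells, at 370 CPM in A.G.-ES and 368 CPM in untreated cells, a ratio of 1.00 (0.970 to 1.04). In CD4 T cells it had 203 CPM in A.G.-ES and 227 CPM in untreated cells. Every class had at least 185 CPM of HNRNPL in the A.G.-ES library and at least 199.6 CPM in the untreated library, and no class was called high or low for it.

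HNRNPLL is also known from mouse plasma cells. Cells with at least 10 UMIs of JCHAIN, DERL3 and MZB1 and no CD3 UMI, taken as antibody-secreting, numbered 41 in A.G.-ES and 393 in untreated. They held 1 HNRNPLL UMI among 428176 in the A.G.-ES library, or 2.34 CPM (0.0591 to 13.0), and 1 among 6136183 in the untreated library, or 0.163 CPM (0.00413 to 0.908). CD4 T cells without a UMI of CCR7, a homing receptor of naive and central memory T cells, had 0.979 times the HNRNPLL level of those with one in A.G.-ES (0.816 to 1.18) and 1.23 times in untreated (0.837 to 1.89). Many cells without a CCR7 UMI may still express it, since a UMI was seen in 109 of 1369 A.G.-ES and 20 of 359 untreated CD4 T cells. Both subsets were chosen after the data were seen.

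**Figure D2:**
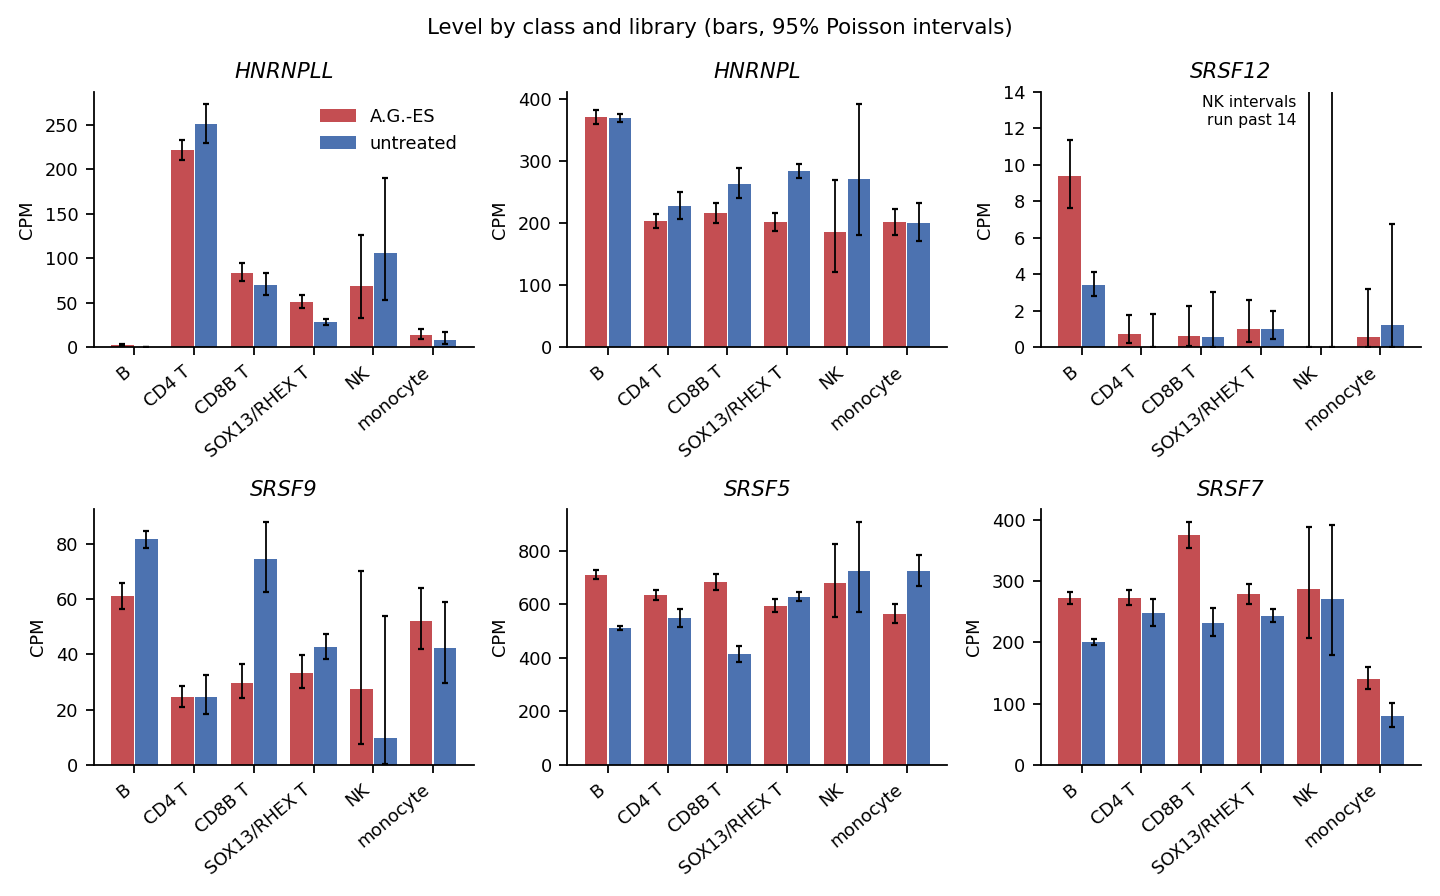
CPM (y axis) of 6 genes in the 6 marker-gated classes (x axis), with A.G.-ES in red left of untreated in blue; bars start at 0 and error lines are 95% Poisson intervals of the summed UMIs. HNRNPLL peaks in CD4 T at 221 and 251 CPM and is near 0 in B, while HNRNPL peaks in B at 370 and 368 CPM.

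SRSF12 had most of its UMIs in the B class. This rarely expressed SR-like protein is a relative of SRSF10 and is known for opposing other SR proteins. Of its UMIs, 102 of 124 in the A.G.-ES library and 112 of 133 in the untreated library came from the B class. It had 9.37 CPM in A.G.-ES and 3.41 CPM in untreated B cells, 15.1-fold and 6.23-fold above the other classes' median, and was past 1.5-fold against each other class. Those medians rest on 0 to 8 UMIs a class, and the call was lost where SRSF12 no longer reached the UMI minimum: a minimum of 500, thinned cells, and cells of 3000 to 6000 UMIs. Calls of SRSF12 as high in SOX13/RHEX T (4 A.G.-ES and 8 untreated UMIs) and low in NK (0 UMIs in both) rest on too few UMIs to be read.

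Between the libraries SRSF12 in B cells was 2.75-fold higher in A.G.-ES (2.08 to 3.63). It was the 1 gene of 30 called higher in B and none was called lower, where 9.8% of all genes were called higher and 16.8% lower. Within each library it was also higher in cycling B cells, those with at least 3 UMIs of MKI67, TOP2A, CENPF, TYMS, RRM2, CDK1 and BIRC5, than in B cells with none: 19.5 against 8.56 CPM in A.G.-ES (5 UMIs in the cycling cells) and 10.9 against 1.99 CPM in untreated. With cycling cells left out the log2 ratio in B was 2.10, against 1.46 with all B cells. With antibody-secreting cells left out SRSF12 fell under the UMI minimum in B.

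SRSF9 was the other gene high in B, at 61.1 CPM in A.G.-ES and 81.6 CPM in untreated cells, 2.05-fold and 1.93-fold above the other classes' median. Over all genes, 17.5% were high in B and 14.1% low; among the 31, SRSF12 and SRSF9 were high and HNRNPLL was low. In antibody-secreting cells SRSF9 had 95.8 CPM in A.G.-ES and 125 CPM in untreated, and the B call was lost when cells with at least 3 UMIs of JCHAIN, DERL3 and MZB1 were left out. Cells with at least 10 such UMIs made up 2.79% of A.G.-ES and 12.9% of untreated B cells. The SRSF9 log2 ratio in B was -0.42, and -0.06 without the antibody-secreting cells. The lowest ratio in B was that of HNRNPAB, with 157 CPM in A.G.-ES and 222 CPM in untreated cells (log2 -0.50). HNRNPC had 183 CPM in A.G.-ES and 234 CPM in untreated B cells (log2 -0.35).

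SRSF7 and SRSF5 were 2 of the 9 genes above 0 on the log2 scale over all kept cells (0.48 and 0.28). The other 22 of the 31 were below 0, as were 6516 of the 11787 genes past the UMI minimum. SRSF7, which shares with SRSF3 the task of handing RNA to the export receptor, was above 0 on the log2 scale in all 5 classes where it reached the minimum. Its levels were 273 CPM in A.G.-ES and 201 CPM in untreated B cells (log2 0.44), and 376 CPM in A.G.-ES and 233 CPM in untreated CD8B T cells (log2 0.69). In monocytes it had 141 CPM in A.G.-ES and 79.9 CPM in untreated cells (log2 0.82). The CD4 T and SOX13/RHEX T ratios were smaller, log2 0.14 and 0.19, and with stricter gates the CD4 T ratio was -0.02. No other gene of the 31 that reached the minimum in more than 1 class was above 0 in each of them.

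SRSF5, an SR protein first found as a gene induced by insulin, had 711 CPM in A.G.-ES and 512 CPM in untreated B cells, a ratio of 1.39 (1.35 to 1.43). In CD8B T cells it had 683 CPM in A.G.-ES and 414 CPM in untreated cells, 1.65-fold higher. In CD4 T cells it had 633 CPM in A.G.-ES and 548 CPM in untreated cells (log2 0.21). Monocytes went the other way, with 565 CPM in A.G.-ES and 725 CPM in untreated cells (log2 -0.36). The SOX13/RHEX T and NK ratios of SRSF5 were also below 0, by less, at log2 -0.08 and -0.10.

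CD8B T cells held most of the calls between the libraries. Of 30 genes that reached the minimum, 2 were called higher, SRSF5 and SRSF7, and 9 lower, or 6.67% and 30%. Over all genes of that class 7.06% were called higher and 29.2% lower, so the count of lower genes matched the background. The median log2 ratio was -0.40 for the 30 genes and -0.30 for all genes. The lower genes were SRSF9, HNRNPC, HNRNPA3, SRSF1, HNRNPD, HNRNPAB, HNRNPUL1, HNRNPA2B1 and HNRNPUL2.

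SRSF9 had 29.8 CPM in A.G.-ES and 74.4 CPM in untreated CD8B T cells, 2.50-fold lower. HNRNPC had 141 CPM in A.G.-ES and 266 CPM in untreated cells, 1.90-fold lower, and HNRNPA3, a repressor of the HNRNPA1 type, had 264 CPM in A.G.-ES and 495 CPM in untreated cells, 1.87-fold lower. HNRNPD, also called AUF1, which marks AU-rich messages for decay, had 348 CPM in A.G.-ES and 610 CPM in untreated cells, 1.75-fold lower. SRSF1, the founding SR protein, rested on 62 A.G.-ES and 63 untreated UMIs, 19.2 CPM and 34.5 CPM. HNRNPUL1 and HNRNPUL2, relatives of HNRNPU with a part in DNA break repair, were 1.53-fold and 1.51-fold lower.

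The class also differed in dividing cells. Cells with at least 3 UMIs of the cycling genes made up 2.61% of A.G.-ES and 26.0% of untreated CD8B T cells. Without any cell that carried a cycling UMI, the median log2 ratio was -0.06 for the 27 genes still past the minimum and -0.26 for all genes, and 1 gene was called higher and 1 lower, where 6.4% of all genes were called higher and 24.3% lower. The 2 were SRSF7 at log2 1.09 and HNRNPC at -0.79. HNRNPA3 stood at -0.11, HNRNPD at -0.17, HNRNPA2B1 at -0.07 and SRSF5 at 0.46. SRSF9, SRSF1 and HNRNPH2 fell under the minimum. TMM scaling moved every CD8B T ratio up by 0.32, which left 2 genes called higher and 3 lower, SRSF9, HNRNPC and HNRNPA3; it moved CD4 T ratios by 0.21 and SOX13/RHEX T ratios by 0.10.

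**Figure D3:**
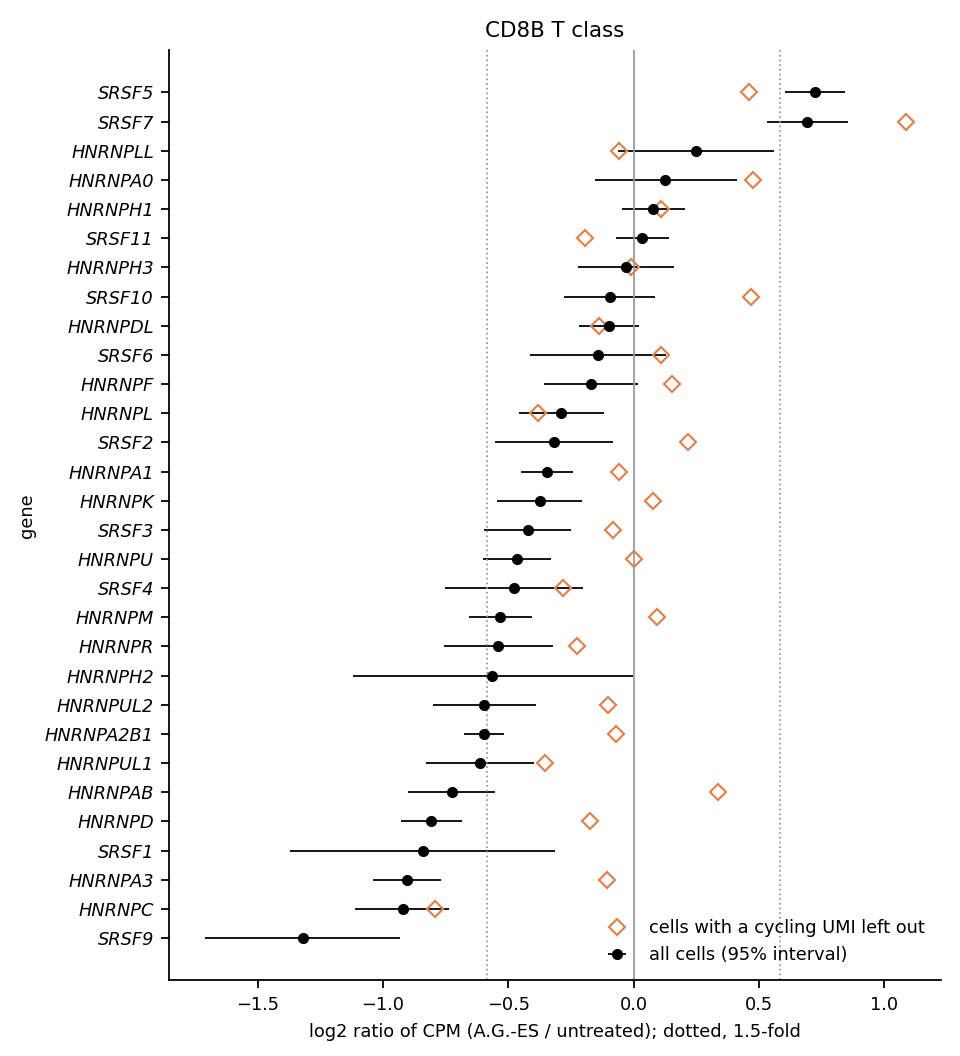
Log2 ratio of CPM, A.G.-ES over untreated (x axis), of the 30 genes past the UMI minimum in the CD8B T class (y axis): filled points with 95% intervals for all cells, open diamonds with cells that carry a cycling UMI left out; genes without a diamond had fewer than 100 UMIs then. Most diamonds lie nearer 0 than the points, HNRNPC stays near -0.8 and SRSF7 moves out to 1.09.

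The same genes could be read within each library, where cycling and non-cycling cells share a sample. This comparison was added after the data were seen. Cycling cells were deeper, with 21421 UMIs per cell in A.G.-ES B cells (12 cells) against 5441 without a cycling UMI, and 16167 in untreated B cells (255 cells) against 8501. In CD8B T there were 18 A.G.-ES and 60 untreated cycling cells, and in CD4 T 23 and 26.

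HNRNPD and HNRNPA2B1 were at least 1.5-fold higher in cycling cells in all 6 combinations of 3 classes and 2 libraries. In the single combinations 12.7% to 29.5% of all genes were that much higher. The share of all genes higher in all 6 is not given here, so the pattern cannot be called particular to these genes. In B cells HNRNPD had 595 CPM in cycling against 339 CPM in non-cycling A.G.-ES cells, and 654 against 370 CPM in untreated cells. In CD8B T cells it had 775 against 314 CPM in A.G.-ES, and 805 against 354 CPM in untreated. HNRNPA2B1 had 1303 CPM in cycling against 759 CPM in non-cycling A.G.-ES B cells, and 1216 against 754 CPM in untreated B cells. HNRNPA3, HNRNPUL1, SRSF2 and SRSF3 passed 1.5-fold in 5 of 6 combinations and were above 0 in all 6. SRSF9 did the same, but was under the UMI minimum in A.G.-ES CD8B T and in untreated CD4 T cells. It had 18 cycling and 69 non-cycling UMIs in A.G.-ES CD8B T, and 7 and 33 in untreated CD4 T. The A.G.-ES CD8B T ratio is among its 5 past 1.5-fold. SRSF2, also called SC35, had 301 CPM in cycling against 98.8 CPM in non-cycling A.G.-ES CD8B T cells, and 182 against 85.1 CPM in untreated ones.

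SRSF5 did the reverse. It was lower in cycling cells in all 6 combinations and past 1.5-fold in 4, where 14.1% to 25.7% of all genes were that much lower in the single combinations. In B cells it had 257 CPM in cycling against 729 CPM in non-cycling A.G.-ES cells, and 340 against 542 CPM in untreated cells. In CD8B T cells it had 305 against 712 CPM in A.G.-ES, and 321 against 518 CPM in untreated. SRSF11 was also below 0 in all 6, by 0.10 to 0.42 on the log2 scale.

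Counted over both libraries together, 5 of 29 genes were at least 1.5-fold higher in cycling B cells in each library and 1 lower, where 14.9% of all genes were higher and 9.45% lower by that rule. In CD4 T it was 5 of 27 higher and 0 lower, against 6.72% and 5.18%, and in CD8B T 9 of 27 higher and 1 lower, against 15.5% and 7.5%. The 9 were HNRNPA2B1, HNRNPA3, HNRNPAB, HNRNPD, HNRNPUL1, HNRNPUL2, SRSF2, SRSF3 and SRSF10, and the 1 was SRSF5. HNRNPA2B1, HNRNPA3, HNRNPAB, HNRNPD, HNRNPUL1 and HNRNPUL2, which were also lower in A.G.-ES CD8B T cells, had log2 ratios between -0.36 and 0.34 there once cycling cells were left out. The 2 comparisons use the same cells.

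**Figure D4:**
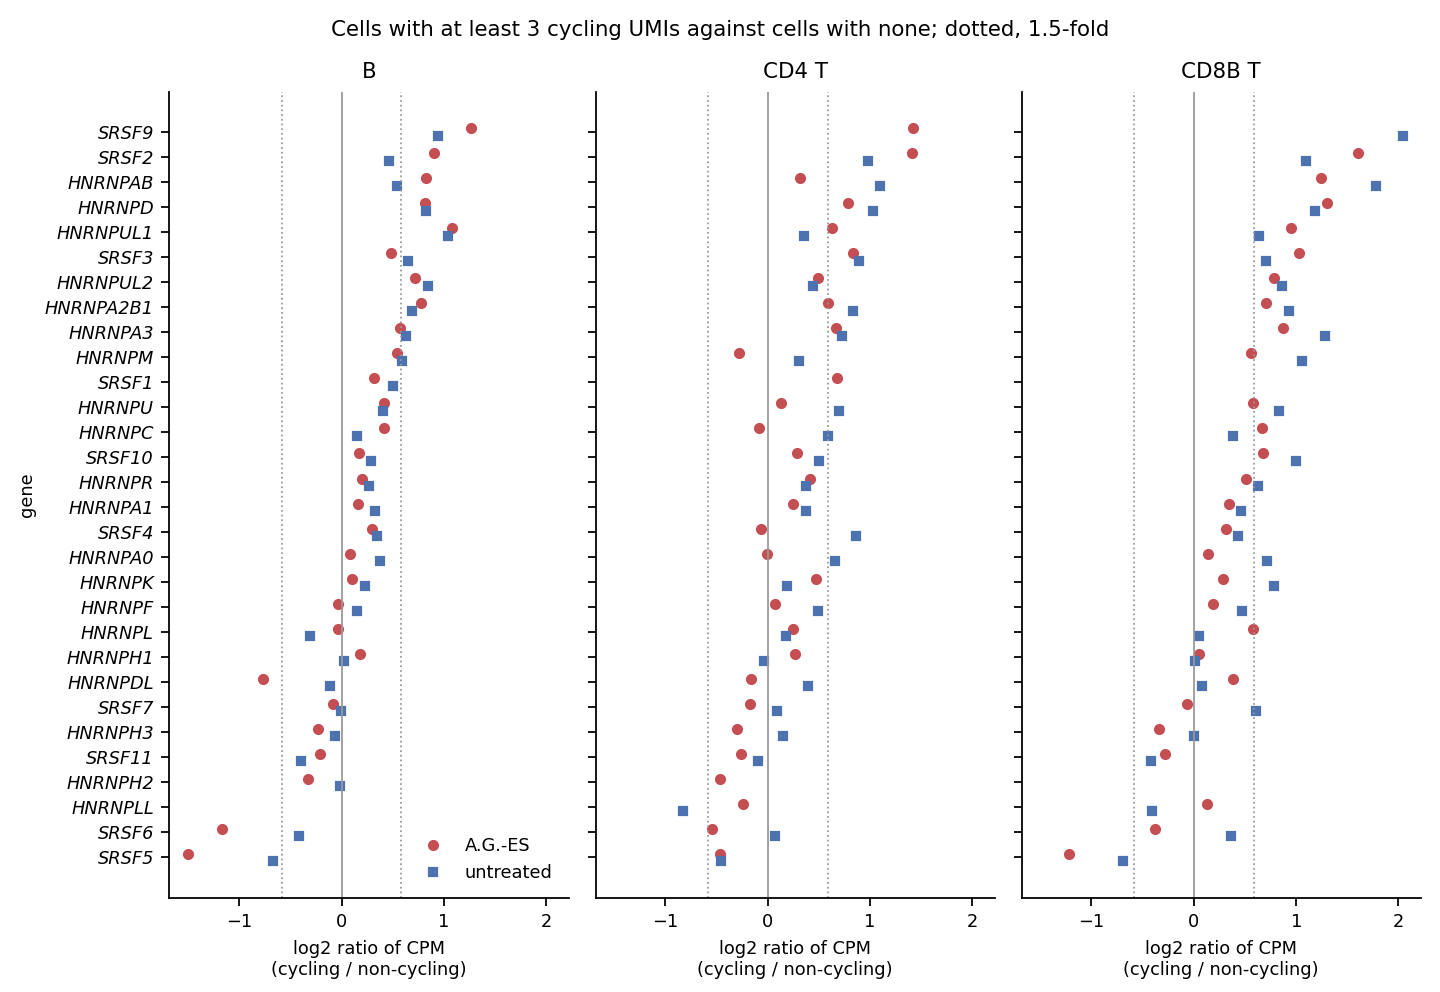
Log2 ratio of CPM in cells with at least 3 cycling UMIs over cells with none (x axis) for each gene with at least 100 UMIs in the cells compared (y axis), in the B, CD4 T and CD8B T classes; red circles are the A.G.-ES library and blue squares the untreated library. SRSF5 lies left of 0 in all 3 panels, and HNRNPD lies between 0.78 and 1.30 in every panel.

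In CD4 T cells 0 of 30 genes were called in either direction, where 5.41% of all genes were called higher and 14.9% lower. HNRNPA0, a single-exon relative of HNRNPA1 tied to stress signalling, came nearest, with 91.1 CPM in A.G.-ES and 63.8 CPM in untreated cells (log2 0.51, interval of the ratio 1.18 to 1.74). HNRNPC had 170 CPM in A.G.-ES and 223 CPM in untreated cells (log2 -0.39), and HNRNPD 339 CPM in A.G.-ES and 436 CPM in untreated cells (log2 -0.36). HNRNPH2 rested on 127 A.G.-ES and 47 untreated UMIs. HNRNPA0 passed 1.5-fold under TMM scaling, at 0.73.

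SOX13/RHEX T cells showed small ratios apart from HNRNPLL. The lowest were HNRNPR, an RNA transport factor related to SYNCRIP, with 128 CPM in A.G.-ES and 181 CPM in untreated cells, HNRNPL with 201 CPM in A.G.-ES and 284 CPM in untreated cells, and HNRNPDL, the paralogue of HNRNPD, with 483 CPM in A.G.-ES and 672 CPM in untreated cells. Their log2 ratios were -0.50, -0.49 and -0.48, none past 1.5-fold. The class is the least dividing of the T classes, with at least 3 cycling UMIs in 0.455% of A.G.-ES and 0.261% of untreated cells. By the class rule 9.07% of all genes were high in it and 13.1% low; of the 31, SRSF12 was called high on the 12 UMIs given above and none low.

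The NK class allowed little to be said, with 7 of 31 genes past the minimum. HNRNPA1 was called lower, with 363 CPM in A.G.-ES (53 UMIs) and 581 CPM in untreated cells (60 UMIs), a ratio of 0.625 (0.424 to 0.920), and no gene was called higher. Among all 397 genes tested there, 10.3% were called higher and 14.4% lower. HNRNPH1, a binder of guanine runs, had 637 CPM in A.G.-ES and 503 CPM in untreated cells, with an interval of 0.892 to 1.81. By the class rule 12% of all genes were high in NK and 21.9% low, and SRSF12, at 0 UMIs, was the 1 gene of the 31 called.

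In monocytes 2 of the 26 genes past the minimum were called higher and 0 lower, where 8.19% of all genes were called higher and 12.5% lower, and the median log2 ratio was 0.06 (-0.08 to 0.13 over the alternatives). The 2 were SRSF7, given above, and SRSF2, with 73.1 CPM in A.G.-ES (128 UMIs) and 43.6 CPM in untreated cells (36 UMIs), 1.68-fold higher (1.15 to 2.50). HNRNPD had 250 CPM in A.G.-ES and 196 CPM in untreated monocytes (log2 0.35). HNRNPA3 had 210 CPM in A.G.-ES and 269 CPM in untreated cells (log2 -0.35). Median depth was 6454 UMIs in A.G.-ES and 4259 UMIs in untreated monocytes, a gap opposite to that in B cells. Among monocytes of 3000 to 6000 UMIs in both libraries SRSF7 and SRSF2 fell under the minimum, and HNRNPD stood at -0.03 and HNRNPA3 at 0.10.

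A low level in monocytes was common among these genes and, to a lesser share, among all genes. Their summed level there was 5062 CPM in A.G.-ES and 5173 CPM in untreated cells, against 7125 to 8165 CPM over the other A.G.-ES classes and 8113 to 9397 CPM over the other untreated classes. For 21 of the 31 genes the monocyte class was the lowest of the 6 in both libraries, as it was for 20.7% of all genes, many of which have too few UMIs for a firm order of 6 classes. By the class rule 14 of 31 were low (45.2%) and 0 high, where 34.9% of all genes were low in monocytes and 18.2% high.

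HNRNPR, for one, had 46.3 CPM against a median of 130 CPM in the other A.G.-ES classes and 39.9 against 175 CPM in untreated, 2.81-fold and 4.37-fold lower. HNRNPDL had 221 against 483 CPM in A.G.-ES and 223 against 552 CPM in untreated, and SRSF11 336 against 691 CPM in A.G.-ES and 324 against 711 CPM in untreated. HNRNPM, which binds guanine- and uridine-rich RNA, had 193 against 391 CPM in A.G.-ES and 214 against 426 CPM in untreated. SRSF7, HNRNPA0, SRSF1 and SRSF4 were likewise low, SRSF1 on 19 A.G.-ES and 4 untreated UMIs. The remaining calls were HNRNPA1, HNRNPA2B1, HNRNPAB, HNRNPH3, HNRNPU and HNRNPLL. Under TMM scaling between classes 7 of the 14 were lost: HNRNPA1, HNRNPA2B1, HNRNPAB, HNRNPH3, HNRNPM, HNRNPU and SRSF4. The share of all genes low in monocytes under that scaling is not given here.

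Among the genes not called low in monocytes, some lay near or above the other classes' median in at least 1 library. SRSF3, the smallest SR protein and an adaptor for RNA export, had 292 CPM in A.G.-ES and 250 CPM in untreated monocytes, against medians of 189 CPM and 190 CPM over the other classes of each library. HNRNPH2, a copy of HNRNPH1 on the X chromosome in human, had 29.7 against 19.0 CPM in A.G.-ES and 20.6 against 19.4 CPM in untreated. SRSF6 had 98.8 against 102 CPM in A.G.-ES and 93.2 against 95.4 CPM in untreated. SRSF9 had 52.0 against 29.8 CPM in A.G.-ES and 42.3 against 42.6 CPM in untreated. SRSF5 had 565 against 678 CPM in A.G.-ES and 725 against 548 CPM in untreated, so its place among the classes turned round between the libraries.

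**Figure D5:**
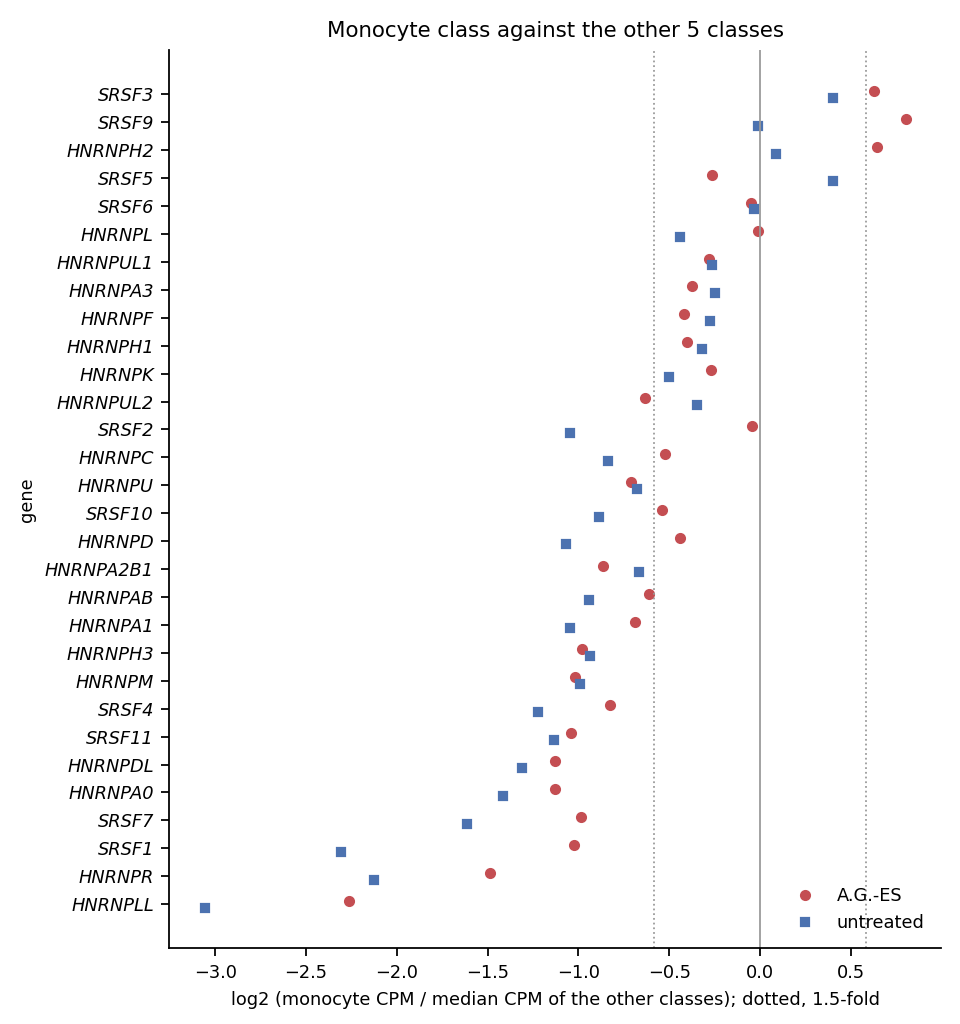
Log2 of the CPM in the monocyte class over the median CPM of the other 5 classes (x axis) for 30 of the 31 genes (y axis; SRSF12 is left out for its few UMIs), with red circles for the A.G.-ES library and blue squares for the untreated library; dotted lines mark 1.5-fold. Of the 30 genes 26 lie left of 0 in both libraries, with HNRNPLL farthest left in both; SRSF3 and HNRNPH2 lie right of 0 in both.

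The remaining ratios between the libraries can be given by range. HNRNPF, HNRNPH1 and HNRNPH3, binders of guanine runs, and HNRNPK, a binder of cytosine runs, had log2 ratios between -0.37 and 0.34 in every class where they reached the minimum. HNRNPU, a scaffold of nuclear RNA and chromatin, was below 0 in all 5 of its classes, from -0.47 in CD8B T to -0.13 in CD4 T. HNRNPC and HNRNPA3 were also below 0 in all 5, HNRNPA2B1 and HNRNPDL in all 6, and SRSF1 in all 4; under TMM scaling HNRNPC was still below 0 in all 5 and each of the other 5 genes was above 0 in 1 or 2 classes. SRSF10, SRSF6, SRSF4 and SRSF3 lay between -0.48 and 0.24. All of these ratios share the same total per class, so a common offset enters each of them, and the median over all genes was itself below 0 in all 6 classes, from -0.30 to -0.07.

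The other 5 lists of splicing genes were set beside them over all kept cells. There 15.1% of all genes were called higher and 16.9% lower, with a median log2 ratio of -0.07. Of 30 core snRNP genes 0 were called higher and 5 lower (median log2 -0.21), the lower count being close to the share over all genes. The lowest were SNRPG and SNRPA. SNRPG, a ring subunit, had 30.6 CPM in A.G.-ES and 61.8 CPM in untreated cells. SNRPA, a protein of the U1 particle, had 13.8 CPM in A.G.-ES and 26.1 CPM in untreated cells. The highest, SF3A1 and SF3B1, both of the U2 particle, were at log2 0.30 and 0.29. In CD8B T cells 14 of 28 core snRNP genes were lower (median -0.65) and none higher, in the class with 29.2% of all genes lower; the part of the cycling cells in this was not tested.

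Of 10 hnRNPs under other names 0 were higher and 2 lower, beside 15.1% and 16.9% of all genes. KHDRBS1, also called SAM68, had 86.6 CPM in A.G.-ES and 141 CPM in untreated cells. SYNCRIP, the other lower gene, had 119 CPM in A.G.-ES and 189 CPM in untreated cells. PCBP1, a binder of cytosine runs, had log2 0.47 and CIRBP, a cold-induced RNA-binding protein, 0.17. None of the 17 SR-related proteins was called; PNN and SRRM1, both of nuclear speckles, were at log2 0.39 and 0.37, and U2AF1, which reads the 3′ splice site, and RNPS1 at -0.48 and -0.33.

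Among the 10 kinases and importers that act on SR and hnRNP proteins, CLK1 was called higher, at 165 CPM in A.G.-ES and 107 CPM in untreated cells (1.54-fold), and none lower. CLK1 phosphorylates SR proteins. Its relative CLK3 was at log2 0.33, and DYRK1A and the importer TNPO1 were at -0.46 and -0.40. Of 13 tissue-regulated splicing factors 11 reached the minimum, 0 were higher and 3 lower. The shares of all genes beside both lists were again 15.1% higher and 16.9% lower. MBNL3, of the muscleblind family, had 8.68 CPM in A.G.-ES and 19.5 CPM in untreated cells, and RBM38 had 16.3 CPM in A.G.-ES and 27.4 CPM in untreated cells, while RBM5 and ELAVL1 were at log2 0.17 and 0.12. The third lower gene, CELF1, falls outside the rule for named genes and is given for completeness at log2 -0.61.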

How the data were processed

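The authors deposited raw UMI counts per gene and barcode for each library, made per the labels with a SeekOne DD 3′ droplet kit and a GeneMind SURFSeq instrument. Not given in the sources used here are the aligner, genome build, counter, cell caller and handling of shared reads. Kept barcodes had a minimum of 500 UMIs and 200 genes, and mitochondrial genes gave no more than 15% of their UMIs. Scrublet (scanpy 1.11.5) scored doublets; the top scores, 0.8% per 1000 cells, were removed, which took out 715 A.G.-ES and 523 untreated cells (7.56% and 6.47%), where the tool's automatic threshold marked 2.29% and 2.97%.

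Classes were gated on marker UMIs. B needed at least 2 B-marker UMIs and more than 3 times its CD3 UMIs; T at least 2 UMIs of CD3D and CD3E, with CD4, CD8B or at least 2 of SOX13 and RHEX and none of the others; NK at least 1 UMI of NCR1 or KLRF1 and no CD3; monocytes at least 5 monocyte-marker UMIs. These thresholds were set after marker counts were seen. The genes, lists and classes were chosen with earlier results of these data known.

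Counts were summed per class and scaled to the class total, with TMM (edgeR 4.0.16) as an alternative. Values were drawn from the 8 genes with the most UMIs and the 3 highest and 3 lowest ratios per class. They were also drawn from class-specific genes, HNRNPLL and HNRNPL, and the 2 highest and 2 lowest of each further list. Not every gene under these rules has its values given in each class. The ratio and interval code was tested on simulated data. All 31 symbols matched the RefSeq table of ARS-UI_Ramb_v3.0, used for names alone.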

Additional observations from a re-analysis of the deposited data

Results flagged for a closer look

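For 4 genes the log2 ratios lay on opposite sides of 0 in 2 classes, with intervals that exclude 0 in each and at least 1.5-fold in one of them. These differences between classes were not tested, since each class has 1 library per group.

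HNRNPLL had a log2 ratio of 0.85 in SOX13/RHEX T cells and -0.18 in CD4 T cells, a difference of 1.03; TMM scaling turned the CD4 T ratio to 0.03. HNRNPD, the AU-rich element binder, had 0.35 in monocytes and -0.81 in CD8B T cells, a difference of 1.16; the monocyte ratio ranged from -0.03 to 0.46 over the alternatives. SRSF2 had 0.75 in monocytes and -0.33 in B cells, a difference of 1.07. SRSF5 had 0.72 in CD8B T cells and -0.36 in monocytes, a difference of 1.08. HNRNPD and SRSF2 were higher, and SRSF5 lower, in cycling than in non-cycling B and CD8B T cells of both libraries. With cells that carry a cycling UMI left out, HNRNPD had 0.37 in monocytes and -0.17 in CD8B T cells, SRSF2 had 0.65 in monocytes and -0.31 in B cells, and SRSF5 had 0.46 in CD8B T cells and -0.36 in monocytes.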

How the results depend on the processing

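No paired analysis was possible because each group has 1 library, and no library could be left out. The median log2 ratio of the genes moved by less than 1.5-fold in all 83 class and setting combinations, from -0.42 to -0.06 in CD8B T, from -0.14 to -0.05 over all kept cells, and across 0 in the other classes. Of 192 counts of called genes 145 stayed within 1.5 times and 47 did not; of 575 values of single genes 135 moved beyond their counting interval, and none past 1.5-fold changed sign.

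Of genes called higher and lower in CD8B T (2 and 9), TMM scaling and centring on the median gene each left 3 lower, leaving out cycling cells 1 higher and 1 lower, equal weight per cell 1 higher and 3 lower, thinning to 1500 UMIs 2 lower, and cells of 3000 to 6000 UMIs 1 higher and 1 lower. Over all kept cells (1 and 1), leaving out cycling cells or antibody-secreting cells gave 2 higher, and 0 were lower without antibody-secreting cells, in cells of 3000 to 6000 UMIs, or with the class mix held. In B, where 1 was higher, centring, no UMI minimum and doublets kept gave 2, and a minimum of 500, thinning, cells of 3000 to 6000 UMIs and leaving out antibody-secreting cells gave 0. In CD4 T, where 0 were higher, 1 was higher with TMM, centring, totals without mitochondrial, ribosomal and haemoglobin genes, no cycling cells, thinning, or cells of 3000 to 6000 UMIs. With no minimum 1 was also higher there, SRSF12 on 5 A.G.-ES and 0 untreated UMIs. In SOX13/RHEX T a minimum of 500 left 0 of 1. In NK, no minimum gave 6 higher and 6 lower, and stricter gates, doublets kept, no cycling cells, equal weight and thinning left 0 of 1 lower. In monocytes, no minimum gave 5 higher and 1 lower, a minimum of 500 and thinning left 0 of 2 higher, and cells of 3000 to 6000 UMIs gave 0 higher and 1 lower.

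Of 5 high and 16 low class calls, a minimum of 500 left 3 high, 1.5-fold against each other class 2 high and 7 low, and 2-fold against the median 2 high and 8 low. The cause of these moves was not tested, beyond the fewer UMIs that a higher minimum, thinning or a depth window leave by construction. The depth window, the class mix and leaving out antibody-secreting cells were added after the data were seen. In the NK class 7 of 31 genes reached the UMI minimum, and SRSF12 reached it in no class but B.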
